A study of Mus musculus with 2 samples.

Results

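The cells described here are the day 3 cells of mouse intestinal organoids with the highest levels of 6 genes of the regenerating epithelium, Clu, Ly6a, Msln, Anxa1, Anxa3 and Lgals3. Each cell was scored by the mean of the authors' log2 values over the 6 genes, and the 150 cells with the highest score were taken, which is 18.8% of the day 3 cells and leaves 648 others, of 1863 cells in both libraries. The mice that gave the organoids were C57BL/6, wild type and 10 weeks old, and 1 library of single cells was made at day 3 and 1 at day 5. All cells grew in ENR, a medium with EGF, Noggin and R-spondin. Up to day 3 the medium also held 20% Wnt3a-conditioned medium and 10 µM of Y-27632, an inhibitor of ROCK, with 3 µM of CHIR99021, an inhibitor of GSK3B that raises Wnt signalling, up to day 1. After day 3 the medium was ENR alone, so day and medium differ together between the libraries. Cells with a high score and the other day 3 cells come from the same library and had the same medium. How many mice or cultures stand behind the library is not given in the sources used here, cells of 1 library are not replicates, and no test between groups of cells is made.

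When the intestinal epithelium is damaged or replated as single cells, surviving cells can leave their normal programme and turn on genes that the fetal gut also uses. Clu encodes the secreted chaperone clusterin and marks revival stem cells of the injured crypt, Ly6a encodes Sca-1 and marks fetal-like repairing epithelium, and Msln encodes the surface protein mesothelin. Anxa1 and Anxa3 encode annexins, which bind membranes in the presence of calcium, and Lgals3 encodes galectin-3, which binds sugars on surface proteins. The transcriptional co-activator YAP, acting through TEAD factors and often together with AP-1, is known to be needed for this state, while Lgr5 marks the columnar stem cells of the resting crypt.

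Promoters of the genes that stood highest in these cells are shown first, since TEAD and AP-1 are the factors most often tied to the regenerating state. RefSeq promoters on GRCm38.p6, 250 bases before to 50 after a gene's start, were matched for 16 of 26 genes, the 6 genes of the score and the 20 genes with the highest ratio in the 150 cells. The 10 without one were Clu, Ly6a, Msln, Anxa3, Ccn2, Cxcl16, S100a14, Rdh10, Fam213a and Tubb2b. Of the score genes only Anxa1 and Lgals3 are thus covered. The 3 below show what a match looks like, and only the bases before the start are printed, on the gene's strand, with the match in capitals. Sprr1a, a cornified envelope protein of stressed epithelia (chr3:92485882-92486131, minus strand), and F3, tissue factor, the starter of blood clotting (chr3:121723287-121723536, plus strand), each hold 2 AP-1 motifs, and Anxa1 (chr19:20390672-20390921, minus strand) holds 1 TEAD motif.
Sprr1a: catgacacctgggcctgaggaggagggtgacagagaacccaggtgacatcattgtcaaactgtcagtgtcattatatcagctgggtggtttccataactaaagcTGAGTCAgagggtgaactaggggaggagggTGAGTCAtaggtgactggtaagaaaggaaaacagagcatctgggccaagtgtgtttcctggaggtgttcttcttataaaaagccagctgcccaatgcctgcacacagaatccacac
F3: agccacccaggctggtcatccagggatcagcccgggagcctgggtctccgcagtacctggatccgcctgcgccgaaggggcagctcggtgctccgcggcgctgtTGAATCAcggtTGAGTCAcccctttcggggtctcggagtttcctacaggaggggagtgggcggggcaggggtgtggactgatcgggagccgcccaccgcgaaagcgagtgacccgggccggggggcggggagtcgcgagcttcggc
Anxa1: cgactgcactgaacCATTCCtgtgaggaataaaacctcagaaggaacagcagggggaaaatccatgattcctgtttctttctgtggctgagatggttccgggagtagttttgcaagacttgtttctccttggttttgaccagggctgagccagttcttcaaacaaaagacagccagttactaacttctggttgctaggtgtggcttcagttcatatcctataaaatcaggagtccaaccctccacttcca
The AP-1 motif searched was TGANTCA and the TEAD motif GGAATG, each on both strands, and the motifs do not overlap in these windows. In Sprr1a the AP-1 matches begin 146 and 116 bases before the start, in F3 146 and 135 bases before it, and in Anxa1 the TEAD match begins 236 bases before it. AP-1 was found in 5 of the 20 promoters of the matched genes (25%), against 7.81% of all 32851 promoters of the same length and 5.26% of the promoters of genes tested here. TEAD was found in 5 of 20 (25%), against 14.7% of all promoters and 12.1% of those of genes tested. Some of the 16 genes have more than 1 promoter among the 20. The 5 TEAD matches count 1 site of Cavin1 in each of its 2 overlapping promoters, and Il1rn holds TEAD in 1 of its 3 promoters. Among the 9 promoters found for the 12 genes with the lowest ratio, 1 held AP-1 and 3 held TEAD, so the TEAD letters were no rarer there. These matches are letters in a window and no measure of binding.

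The score ran without a break through the day 3 cells. The 150 cells spanned scores of 1.51 to 5.63 with a median of 2.51, and the other cells spanned 0 to 1.51 with a median of 0.661. The last cell taken had a score of 1.513 and the first left out 1.509. The cells ranked 140 and 160 had scores of 1.560 and 1.456. Scores rose steeply only among the first cells, and the cells near the boundary are alike.

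**Figure D1:**
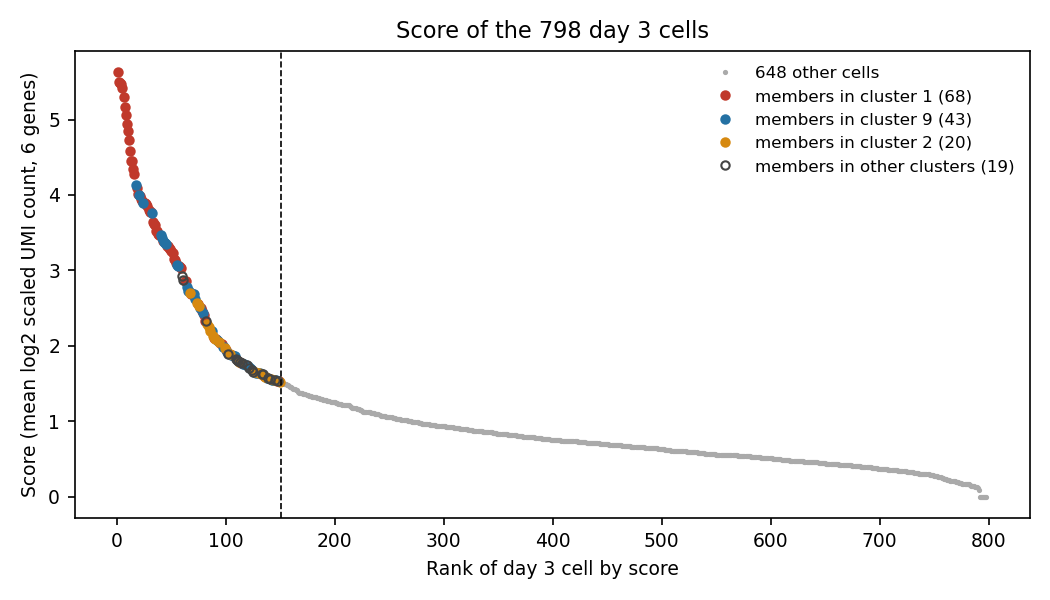
Score of each day 3 cell (vertical axis, mean log2 scaled UMI count of the 6 genes) against its rank (horizontal axis), with the dashed line between the 150 chosen cells and the 648 others and colours for the cluster of each chosen cell. The curve falls from 5.63 to 1.51 among the chosen cells with no step at the line, and cells of cluster 1 fill most of the first ranks.

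The 150 cells held 6141972 UMIs, with a median of 36631 and a range of 17626 to 119743 per cell, and the other day 3 cells held 22622061, with a median of 31138 and a range of 17601 to 86097. Over the 150 and 648 cells together the score and the UMI total had a Spearman rho of 0.15, a description in which both measures share each cell's depth. When each cell was thinned to 17600 UMIs, which left out 0 cells, the median number of genes was 3859.5 in the chosen cells and 3697 in the others. Cells with over 10% mitochondrial UMIs were more frequent among the chosen, at 26 of 150 (17.3%, exact binomial 95% interval 11.6 to 24.4) against 32 of 648 (4.94%, 3.40 to 6.90), while the median cell stood at 4.39% and 4.51%. Scrublet called 0 of the chosen cells and 5 of the others doublets. Cell columns carry serial numbers, so barcodes shared between the libraries could not be counted.

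The next values describe the 6 genes that chose the cells and support nothing. Levels are summed UMI counts scaled to a total of 1000000 (CPM), with exact Poisson 95% intervals that cover counting error only. Clu stood at 1392 CPM in the 150 cells and 87.8 in the others, and in thinned counts a chosen cell held between 0 and 286 Clu UMIs with a median of 10, against 0 to 13 with a median of 1. Ly6a stood at 367 against 26.4 CPM, with 0 to 37 and a median of 4 thinned UMIs per chosen cell. Msln, with 486 against 12.5 CPM, ranged from 0 to 98 UMIs with a median of 2. The cells thus overlapped with the others gene by gene, and a few cells held very high counts. Anxa1 was at 131 against 5.30 CPM, Anxa3 at 354 against 56.2 and Lgals3 at 460 against 52.0.

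The share of chosen cells with at least 1 thinned UMI was 96.7% for Clu, 90.7% for Ly6a, 74.0% for Msln, 60.0% for Anxa1, 96.7% for Anxa3 and 84.7% for Lgals3. In the other cells the same shares were 63.3%, 28.2%, 19.8%, 6.94%, 52.5% and 48.8%. At the same thinned depth a cluster of 45 cells with mixed Paneth and goblet genes had Clu in 66.7%, Ly6a in 26.7% and Msln in 24.4% of its cells, and the Enterocyte-like cells had them in 38.1%, 19.0% and 19.0%. The Ly6a and Msln shares of the other cells lay within the intervals of the mixed cluster (14.6 to 41.9 and 12.9 to 39.5) and are not read as expression. For Clu the mixed cluster's interval (51.05 to 79.999) met that of the Enterocyte-like cells (26.1 to 51.20) at its edge but not that of the 66 cells of cluster 10, with 33.3% (22.2 to 46.0), and how much of the Clu share comes from free RNA was not tested. Before thinning, the mixed cluster had a median of 32857 UMIs and the Enterocyte-like cells of 23772. Lgals3 was found in 85.7% of the thinned Enterocyte-like cells, where galectin-3 is a normal product of mature cells. A UMI of all 6 genes was present in 62 of the 150 cells (41.3%), of 5 in 47, of 4 in 27 and of 3 in 12, against 3 of the other 648 cells with all 6 and 11 with 5. Clu and Ly6a were found together in 131 of the 150 cells, Clu without Ly6a in 14 and Ly6a without Clu in 5.

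To give each gene a level that its own values did not fix, 150 cells were chosen again from the other 5 genes. The 6 choices shared 134 to 144 cells with the full one. Clu was then at 1356 CPM in the chosen cells and 108 in the rest (12.6-fold), and Ly6a at 357 and 29.98 (11.9-fold). Msln was 36.7-fold, Anxa1 20.2-fold, Lgals3 7.25-fold and Anxa3 5.62-fold higher in cells chosen without it. Over all day 3 cells the pairwise Spearman rho of the 6 genes in thinned counts was 0.44 for Clu and Ly6a and lowest, at 0.17, for Clu and Lgals3.

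Across all genes, the 150 cells were compared with the other 648 as summed counts. A gene is called higher or lower where the CPM ratio was at least 1.5-fold and the Poisson intervals did not overlap, among the 12143 genes with at least 10 UMIs in both groups together. By this rule 1930 genes (15.9%) were higher and 474 (3.9%) lower, and the median log2 ratio was 0.16. With TMM factors in place of CPM all log2 ratios shift down by 0.18, to a median of -0.02, and the split becomes 1325 higher and 852 lower (60.9% higher among those called, against 80.3%). Without cells over 10% mitochondrial UMIs in either group, an alternative added after seeing the data, 1322 (11%) were higher and 463 (3.86%) lower among 12008 genes. Counts of list members below should be read against these shares. The 6 genes that chose the cells are left out of every list but their own. Since all genes come from the cells that were ranked, the counts describe these cells.

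Among the genes with the highest ratio, Sprr1a led with 79.3 CPM in the 150 cells and 2.48 in the others, a log2 ratio of 4.99, but 10 cells held 91.6% of its UMIs in the chosen cells. Il1rn, the antagonist of the interleukin-1 receptor, was at 99.2 against 7.65 CPM (log2 ratio 3.69), and Cxcl16, a membrane-bound chemokine, at 142 against 13.1 (3.44). Anxa10, an annexin of the stomach, was at 86.5 against 4.95 CPM, and Myof, a protein of membrane repair, at 64.0 against 4.95. Wfdc2, a secreted protease inhibitor, was at 147 against 15.96 CPM, Capn2, a calcium-dependent protease, at 52.6 against 5.70, and F3 at 98.7 against 11.2. Cavin1, a coat protein of caveolae, was at 60.7 against 8.001 CPM and Flna, the actin cross-linker filamin A, at 79.5 against 11.8. Slc7a11, the cystine carrier, was at 80.8 against 13.3 CPM and Rdh10, which makes retinal from retinol, at 200 against 32.4. The remaining genes among the 20 highest include the tubulins Tuba1a and Tubb2b (log2 ratios 4.30 and 3.14; near-identical tubulin genes may share reads), S100a14 (2.87), Sema3c (2.67), Anxa5 (2.62) and Fam213a (2.85). Cck, a gut hormone, also met the rule at 2.76, but 1 cell held 93.9% of its UMIs in the chosen cells, and without that cell its log2 ratio was -1.25. Other genes were uneven between cells too. The 10 chosen cells richest in each gene held 65.6% of the Tuba1a, 60.6% of the F3 and 57.1% of the Wfdc2 UMIs. For Rdh10 that share was 26.7%, the lowest among the 20.

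Genes whose thinned counts followed the score most closely over all day 3 cells were, beyond the 6, S100a6 (Spearman rho 0.64), Krt7 (0.55), S100a11 (0.54), Tmsb4x (0.47), Anxa2 (0.47), Tm4sf4 (0.44), Lmna (0.41), Mboat1 (0.40), Emp1 (0.39) and Fam213a (0.39), among 2286 genes ranked. S100a6 and S100a11 encode calcium-binding S100 proteins, Krt7 a keratin of simple ducts, Tmsb4x the actin-binding thymosin beta-4 and Lmna the nuclear lamins A and C. The lowest rho values belonged to Lgals2, a galectin of the intestinal lining (-0.55), and Pigr, the carrier of secreted antibodies (-0.47).

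All 20 measured genes of a list of fetal-like and regenerating epithelium were higher, with a median log2 ratio of 2.83 and a range that began at 0.63 for Phlda1, whose call ended in 3 of 17 alternatives (0.45 with TMM factors). The list was chosen with earlier results of these data known. Krt7 was at 1082 CPM against 221, S100a6 at 4125 against 857, and Emp1, an epithelial membrane protein, at 170 against 32.0. Anxa8 was at 37.1 against 1.24 CPM, Basp1 at 11.9 against 0.0884, and Il33, an alarm cytokine, at 16.9 against 1.68. Krt19, at 2761 against 1233 CPM, Tnfrsf12a, the TWEAK receptor, at 195 against 99.9, and Plaur, the urokinase receptor, at 90.5 against 40.6 had smaller ratios. Without cells over 10% mitochondrial UMIs the median of the list was 2.29.

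**Figure D2:**
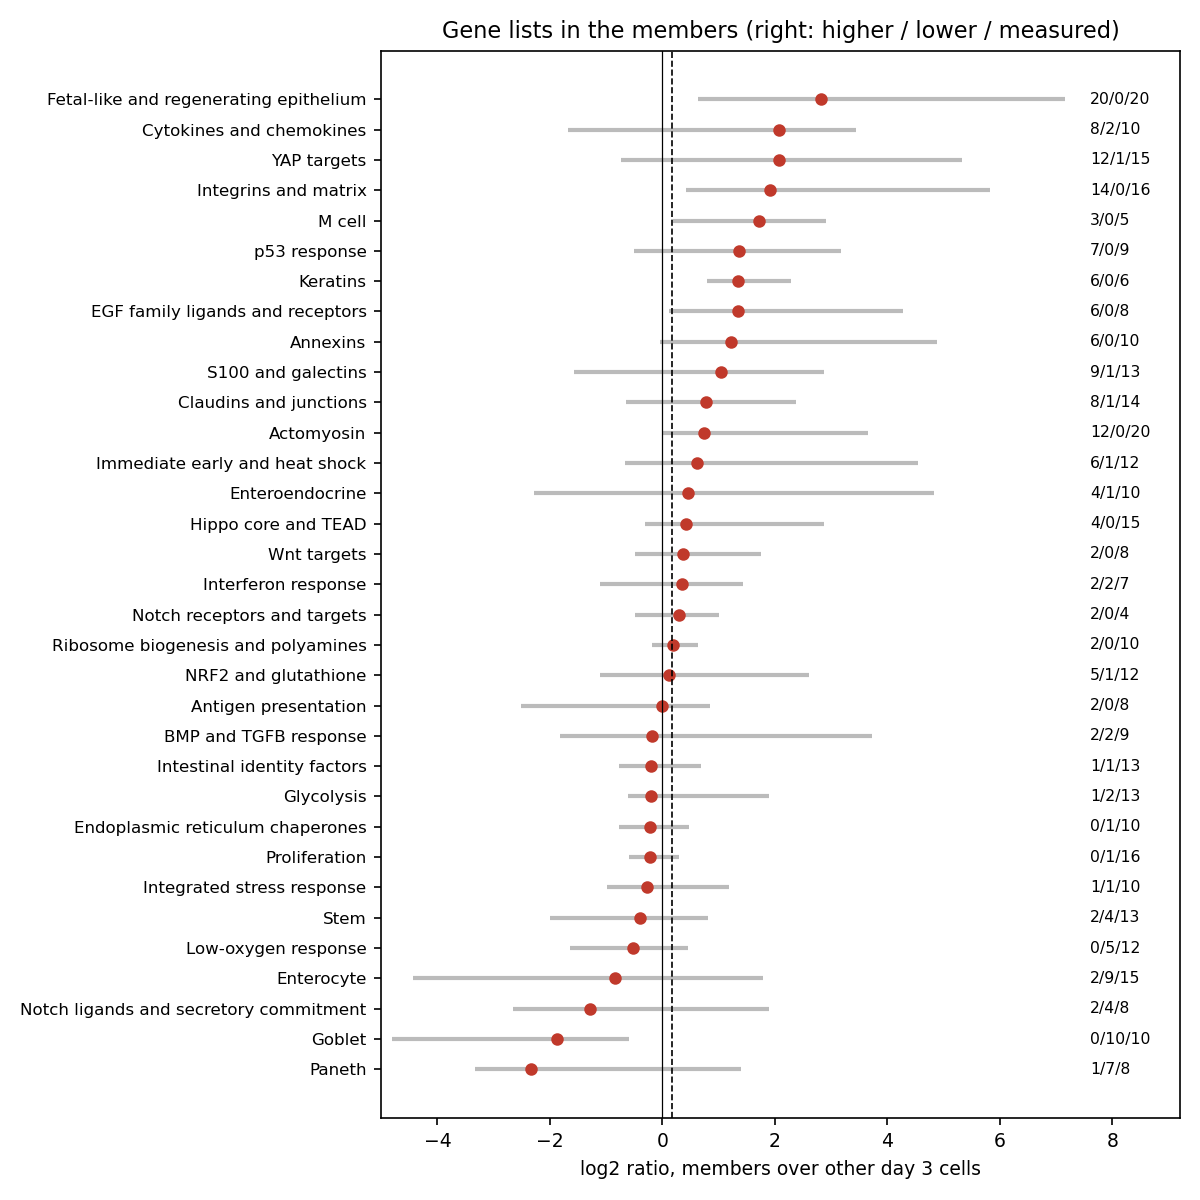
Median log2 ratio of the 150 cells over the other 648 day 3 cells (points) and the range over genes (grey lines) for each gene list with at least 4 measured genes, with the counts of genes higher, lower and measured at the right and the median of all genes as a dashed line. The fetal-like list stands highest at 2.83 with 20 of 20 genes higher, and the Paneth list lowest at -2.33.

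Of 15 measured YAP targets, 12 were higher and 1 lower, with a median log2 ratio of 2.07 (1.29 without cells over 10% mitochondrial UMIs). Their summed level was raised in the first 100 cells by score and not in the last 50 of the 150, as given below. Ccn2, a matricellular growth regulator, was at 55.5 CPM against 4.02, Ankrd1 at 15.0 against 0.354 and Ptpn14 at 9.93 against 1.11. In thinned counts Ccn2 was found in 28.7% of the chosen cells and 6.17% of the others, and Ankrd1 in 5.33% and 0.617%. Of the Ccn2 UMIs in the chosen cells, 10 cells held 61.0%. Ccn1, another much used target, stood at 66.9 against 78.6 CPM and met neither call, and Gadd45a was lower, at 14.2 against 23.6, a call that ended in 2 of 17 alternatives. Among 15 genes of the Hippo kinases and TEAD factors 4 were higher, with a median of 0.43. These were Tead4 (13.03 against 1.77 CPM), the YAP relative Wwtr1, which encodes TAZ (12.9 against 2.25), Tead2 (7.49 against 3.05) and Tead1 (34.7 against 21.8), whose call ended with TMM factors (log2 ratio 0.49) and without cells over 10% mitochondrial UMIs (0.52). Yap1 itself was at 42.2 CPM (37.2 to 47.6) against 30.6 (28.4 to 33.0), with intervals apart but a log2 ratio of 0.46 that missed the 1.5-fold mark.

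In the EGF family 6 of 8 measured genes were higher, with a median log2 ratio of 1.34. Areg, the ligand amphiregulin, was at 210 CPM against 34.9, Ereg, epiregulin, at 2.93 against 0.133 and the receptor Egfr at 34.7 against 8.84, while the ligand Hbegf was at 148 against 137. Of 10 cytokines and chemokines 8 were higher and 2 lower. Csf1, a macrophage growth factor, was at 3.26 CPM against 0.354 and Tnf at 10.9 against 2.21. The 2 lower ones were Ccl25, a chemokine that calls lymphocytes to the small intestine (38.1 against 114), and Edn2 (1.63 against 5.44), whose call ended in 2 alternatives.

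Genes of attachment to the matrix were nearly all higher, with 14 of 16 measured and a median log2 ratio of 1.92 (1.38 without cells over 10% mitochondrial UMIs). Lama3, a laminin chain, was at 11.2 CPM against 0.177 and Timp2, an inhibitor of matrix proteases, at 17.1 against 0.796. Fibronectin, Fn1, was at 3.91 against 0.133 CPM. The common chains Itgb1 and Itga6 had log2 ratios of 0.82 and 0.93, which fell below the 1.5-fold mark at 0.51 and 0.58 without cells over 10% mitochondrial UMIs. All 6 keratins were higher, from Krt8 (0.80) to Krt7 (2.29). Of 20 actomyosin genes 12 were higher and 0 lower, with Tmsb4x at 7645 CPM against 2616 and Actg1, gamma actin, at 2939 against 2621. Among 14 claudin and junction genes 8 were higher, led by Cldn4 (122 against 23.6 CPM) and Tjp1 (90.9 against 31.8), and Cldn15, a sodium channel claudin of the mature gut, was lower (53.7 against 84.5). The median of the junction list, 0.78, was 0.50 without cells over 10% mitochondrial UMIs, and that of the actomyosin list, 0.73, was 0.55 with TMM factors.

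The annexin and S100 families did not move as 1 block. Of 10 annexins other than the 2 that chose the cells, 6 were higher, Anxa8, Anxa10, Anxa6, Anxa5, Anxa2 and Anxa7 (the last under the mark with TMM factors, at 0.56), while Anxa4 (391.9 against 399.4 CPM), Anxa11 (73.9 against 76.0), Anxa13 (28.5 against 27.8) and Anxa9 met neither call. Of 13 S100 proteins and galectins 9 were higher, with S100a14 at 242 CPM against 33.1, and 1 was lower, Lgals2, at 1035 against 3063. Lgals4, an abundant galectin of the gut, stood at 3058 against 3006 CPM.

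The stem, Wnt and Notch genes were mixed. Of 13 measured stem cell genes 4 were lower and 2 higher. Lgr5 was at 4.72 CPM in the 150 cells and 19.1 in the others (log2 ratio -1.99), Gkn3 at 6.51 against 23.7 and Smoc2 at 58.3 against 131. Axin2, a feedback target of Wnt, was at 25.2 against 38.0, a log2 ratio of -0.59 at the edge of the rule that 6 alternatives left under it. A low Lgr5 share was not particular to the 150 cells. In thinned counts it was found in 8.67% of them, 10.9% of the Proliferation-like cluster and 9.52% of the Enterocyte-like cluster. The Stem-like cluster had it in 62.2%, the mixed secretory cluster in 33.3% and the 8 Enteroendocrine-like cells in 50%. Prom1 (131 against 74.4 CPM) and Rnf43, which removes Wnt receptors (36.5 against 21.0), were the 2 higher ones, with log2 ratios of 0.82 and 0.80 that were 0.49 and 0.51, under the mark, without cells over 10% mitochondrial UMIs. Of 8 other Wnt targets the adhesion receptor Cd44 (102 against 30.4 CPM) and the cell cycle starter Ccnd1 (295 against 116) were higher, and 0 were lower. The Notch ligands Jag1 (25.4 against 6.81) and Jag2 (8.63 against 2.92) were higher and Dll1 was lower, at 6.19 against 9.90, a log2 ratio of -0.66 that lost its call in 7 of 17 alternatives and was -0.29 without cells of secretory and Enterocyte-like clusters. Notch1 was at 8.30 against 9.11 CPM and met neither call, and the Notch target Hes1 was higher, at 190 against 117, a log2 ratio of 0.70 that was 0.52 with TMM factors. Of 16 proliferation genes 0 were higher and 1 lower, Ube2c, whose log2 ratio of -0.59 lies at the edge of the rule, and Mki67 was at 137 CPM in both groups.

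Genes of mature absorptive cells were mostly lower, in 9 of 15 measured, with a median log2 ratio of -0.85. Fabp1, a fatty acid binding protein, was at 25.1 CPM against 328, Rbp2, a retinol binder, at 17.1 against 98.2, and Sis, sucrase-isomaltase, at 1.47 against 14.6. Apob, the protein of chylomicrons, and Krt20, a keratin of mature cells, were higher instead, at 166 against 47.8 and 18.1 against 5.79. The list varied with the cells compared. Against Enterocyte-like cells outside the 150, named by such genes, 0 were higher and 11 of 15 lower (median -2.82). Against Stem-like cells 5 of 13 were higher and 2 lower (median 0.28), and against Proliferation-like cells 4 were higher and 4 lower (median -0.07). Against all 648 cells the factors of intestinal identity stood close to level, with 1 of 13 higher, 1 lower and Hnf4a at 177 against 178 CPM. All 10 goblet genes and 7 of 8 Paneth genes were lower, among them Tff3 (315 against 1155 CPM), Agr2 (105 against 385) and Defa24 (50.6 against 513; defensin genes are near copies and may share reads). Without cells of secretory and Enterocyte-like clusters in either group the median turned to 1.16 for the goblet and 0.08 for the Paneth list, and within the 150 cells 1 cell held 58.7% of the Agr2 UMIs. Of 10 enteroendocrine genes 4 were higher and 1 lower, and that list turned to a median of -2.34 when the 100 cells with the highest score were taken. Of 5 measured M cell genes 3 were higher, and Anxa5, at 137 against 22.3 CPM, also stands in the annexin list. Markers of non-epithelial cells were near 0. Of 10 immune markers 5 were in the table, and their summed level was 3.09 CPM in the chosen cells (0 to 68.4 per cell) and 1.86 in the others (0 to 126), with Ccl5 and Lyz2 at 0 in the chosen cells. Of 10 stromal and endothelial markers 2 were in the table, and they summed to 1.95 CPM (0 to 118 per cell) and 0.751 (0 to 215).

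Of 9 measured targets of p53, the factor that halts damaged cells, 7 were higher and 0 lower, with a median log2 ratio of 1.37. Without cells over 10% mitochondrial UMIs the median was 1.27. Trp53inp1 was at 24.7 CPM against 2.74, Phlda3 at 53.6 against 13.4, Ccng1 at 177 against 47.8 and Mdm2, the inhibitor of p53, at 65.9 against 18.6. Of 12 immediate early and heat shock genes 6 were higher, led by Hspb1 (10.7 against 0.442 CPM) and Hspa1a (8.14 against 1.46), and Fos was lower (119 against 189), a call that also ended in 2 alternatives. That list's median of 0.62 was 0.13 without cells over 10% mitochondrial UMIs. The medians of the fetal-like, YAP target and matrix lists also fell in that setting, as given above, and the cause was not tested. Of 12 genes of the response to low oxygen 0 were higher than in the 648 cells and 5 lower (median log2 ratio -0.52). The lower ones included Bnip3 (15.1 against 47.6 CPM) and Ndrg1 (33.9 against 81.6). This list, too, varied with the cells compared. When Proliferation-like cells outside the chosen ones were the comparison, 5 of the 12 were higher and 0 lower (median 0.63). With Stem-like cells 2 were higher and 3 lower (median -0.29), and with Enterocyte-like cells 0 were higher and 11 lower (median -1.95). Among 12 genes of NRF2 and glutathione metabolism 5 were higher than in the 648 cells, led by Slc7a11 and Gsta4 (776 against 297). Gstm1 was lower (121 against 262). The lists of the integrated stress response (1 higher, 1 lower of 10) and of endoplasmic reticulum chaperones (0 higher, 1 lower of 10) held few called genes.

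To see levels along the score, the day 3 cells were cut by rank into 6 bands, the 3 bands of 50 that make up the 150 cells and then bands of 150, 250 and 248 cells. From the first band to the last, Clu stood at 3220, 612, 383, 188, 75.9 and 35.7 CPM and Ly6a at 699.99, 274, 130, 59.9, 22.3 and 9.16, which the ranking itself sets. S100a6 was at 7378, 3202, 1815, 1278, 867 and 576 CPM. Lgals2 ran the other way, from 635 CPM in the first band to 3412 in the last. Lgr5 was at 2.49, 2.31, 9.67, 13.4, 14.8 and 27.0 CPM, so its level in the third band was nearer to that of the next cells than to that of the first 100. Sprr1a had its high level in the first band alone, with 233 CPM in the first band, 5.998 in the second and 1.997 to 3.05 in the other 4. Ccn2 was at 140, 20.3 and 8.14 CPM in the 3 bands of chosen cells. The 16 proliferation genes summed to 1387 CPM in the first band, 2372 in the second and 2732 to 2874 in the other 4, a dip that the count over all 150 cells did not show. The 9 p53 targets summed to 1145, 843, 553, 497, 399 and 343 CPM. The 20 YAP targets in the data summed to 896, 371, 221, 232, 210 and 192 CPM, so the third band was level with the next cells.

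**Figure D3:**
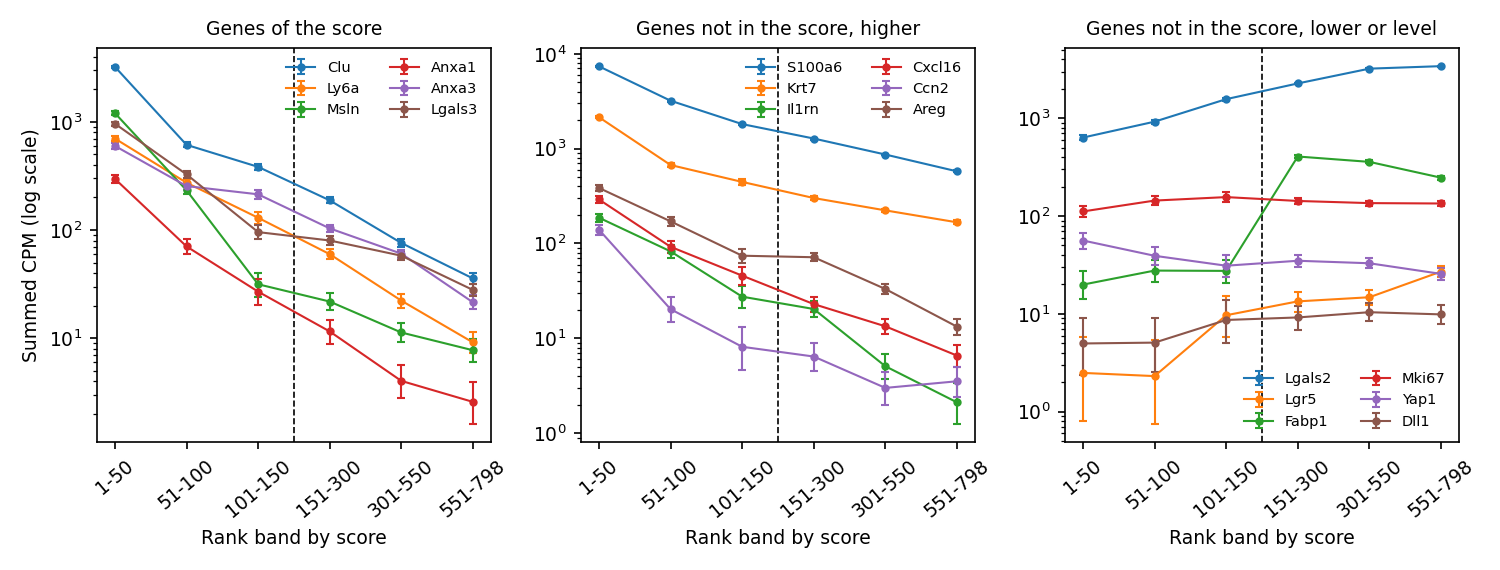
Summed CPM (log axis) of genes in 6 bands of day 3 cells ranked by score (horizontal axis), with exact Poisson 95% intervals as bars and a dashed line at the boundary of the 150 cells, for the genes of the score (left), genes higher in the chosen cells (middle) and genes lower or level (right). S100a6 falls from 7378 to 576 CPM with no step at the line, Lgals2 climbs from 635 to 3412, and Mki67 stays between 111 and 156.

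The 150 cells spread over several clusters. When all day 3 cells were clustered, 68 of the 150 (45.3%) fell in cluster 1, a cluster of 77 cells, and 43 (28.7%) in cluster 9, a cluster of 74 cells. Another 20 lay in cluster 2, whose cells had the second highest median depth of the 11 clusters (43074 UMIs), 7 in the Proliferation-like cluster, 7 in cluster 8, 2 in the Stem-like cluster and 1 each in the Enteroendocrine-like, Enterocyte-like and mixed secretory ones. Cluster 1 met no marker list and stays unnamed, while cluster 9 met the list of the score's own genes, with 3 of them among its leading genes, and is called by its number here. Since the clusters were made from the 2000 most variable genes of these cells, what sets them apart is a description of how the cells were divided. Clu was at 2246 CPM in the chosen cells of cluster 1 and 833 in those of cluster 9, Ly6a at 521 and 323, and Anxa3 at 454 and 351. Msln, at 937 and 98.4 CPM, differed most of the 6. These levels were fixed in part by the choice of the cells.

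The 2 sets of cells are given side by side against the same 648 cells, and differences between their list counts were not tested. The 68 cells of cluster 1 had 2900 of 12003 genes higher (24.2%) and 1080 lower (9%), and the 43 cells of cluster 9 had 702 of 11760 higher (5.97%) and 484 lower (4.12%); the number of cells and of UMIs also sets these counts. The median log2 ratio of the fetal-like list was 3.63 in cluster 1 cells, with 20 of 20 higher, and 1.21 in cluster 9 cells, with 13 of 18 higher. YAP targets had medians of 2.67 and 0.56, over 15 measured genes each. Integrins and matrix genes had medians of 2.65 over 16 measured genes and 0.31 over 13. A gene enters with at least 10 UMIs in the set and the 648 cells together. The fetal-like and matrix medians of the 2 sets thus do not cover the same genes. Keratins had 6 of 6 and 4 of 6 higher, actomyosin genes 12 of 20 and 10 of 19, and annexins 6 of 10 and 5 of 10. The p53 targets had 8 higher and 0 lower in cluster 1 cells (median 2.12) and 0 higher and 1 lower in cluster 9 cells (median -0.55). Proliferation genes had 0 higher and 10 lower in the first (median -0.71) and 2 higher and 0 lower in the second (median 0.23). Genes of ribosome biogenesis had a median of -0.24 and 0.64. The 39 chosen cells outside both clusters had 658 of 11789 genes higher (5.58%) and 239 lower (2.03%), with 8 of 18 fetal-like genes higher (median 1.16) and 3 of 9 p53 targets (median 0.65). The 20 of them in cluster 2 had 946 of 11734 genes higher (8.06%) and 369 lower (3.14%), with 10 of 18 fetal-like genes higher (median 1.10) and 1 of 9 p53 targets (median 0.26).

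**Figure D4:**
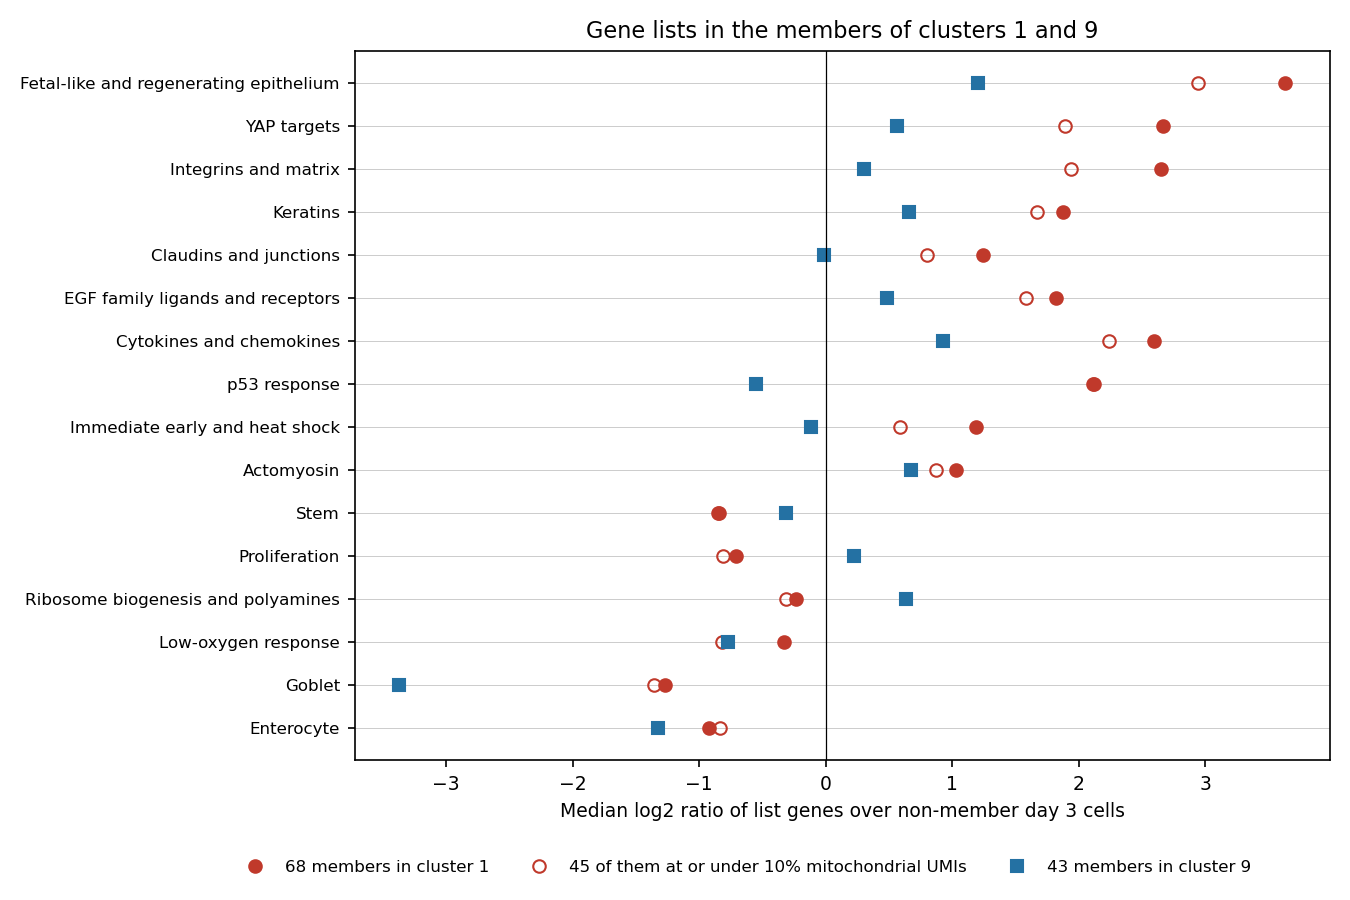
Median log2 ratio over non-member day 3 cells of the genes of 16 lists (horizontal axis) in the 68 chosen cells of cluster 1 (filled circles), the 45 of them at or under 10% mitochondrial UMIs (open circles, against other cells under the same limit) and the 43 chosen cells of cluster 9 (squares). The p53 list stands at 2.12 in cluster 1 cells and -0.55 in cluster 9 cells, and the open circle lies on the filled one there. The genes measured in a list can differ between the sets of cells.

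Compared directly, 1706 of 10351 genes (16.5%) were higher and 1035 (10%) lower in the chosen cells of cluster 1 than in those of cluster 9. Genes named from this comparison were chosen after their values were seen. Cdkn1a, the p53-driven inhibitor of cyclin-dependent kinases, was at 270.5 CPM in cluster 1 cells and 19.1 in cluster 9 cells, and Mdm2 at 118 and 15.9. Slc26a2, a sulfate carrier, was at 224 and 14.6 CPM, Plk2, a stress kinase, at 84.5 and 6.35, and Plat, tissue plasminogen activator, at 83.1 and 8.26. Sprr1a was at 165 and 1.91 CPM. Lower in cluster 1 cells were the S-phase and chromatin genes Pclaf (119 and 485 CPM), Gmnn, geminin (40.1 and 150), Stmn1 (112 and 436) and Hmgb2 (302 and 1085). The histone transcript Hist1h2ap was at 173 and 1344 CPM, where near-identical histone genes may share reads. Of 16 proliferation genes 0 were higher and 11 lower, and of 9 p53 targets 7 were higher.

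Cell by cell, the 9 p53 targets summed to a median of 20.5 thinned UMIs (1 to 63) in the chosen cells of cluster 1, 6 (0 to 17) in those of cluster 9 and 6 (0 to 43) in the other 648 cells. The 16 proliferation genes summed to a median of 17.5 (2 to 94), 52 (28 to 87) and 47.5 (2 to 115). The 20 YAP targets summed to a median of 11 (1 to 78), 4 (0 to 11) and 3 (0 to 23). Their median was 5 in the chosen cells of cluster 2 and 2 in the chosen cells of the remaining clusters. The ranges overlapped, and the proliferation sum had no cell under 28 in cluster 9 but reached 2 in cluster 1. Mitochondrial share differed between the clusters too, with 23 of 68 cluster 1 cells over 10% (33.8%, 22.8 to 46.3) and a median of 6.81%, against 0 of 43 cluster 9 cells, which allows a share of up to 8.22% by the exact interval, and a median of 3.37%. In the 45 cluster 1 cells at or under 10% the p53 sum had a median of 22 UMIs and the proliferation sum of 18. In the same 45 cells 1897 of 11860 genes (16%) were higher and 1026 (8.65%) lower than in the other cells under the same limit.

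The 109 Stem-like cells outside the 150 give a comparison with 1 cluster, in which 2114 of 11146 genes (19%) were higher and 537 (4.82%) lower in the 150 cells. The cluster was named by stem cell genes, so their lower level is partly set by the clustering. Of 13 stem genes 8 were lower and 1 higher, with Lgr5 at 4.72 CPM in the 150 cells and 58.4 in the Stem-like cells and Ascl2 at 9.44 and 36.7. Sox9, at 64.6 and 92.0 CPM, and Slc12a2, at 245 and 310.5, met neither call. YAP targets had 10 of 15 higher and 0 lower in this comparison, with a median log2 ratio of 1.79. Fetal-like genes had 19 of 20 higher, with a median of 3.99. Against the 121 Proliferation-like cells outside the 150, 1817 of 11162 genes (16.3%) were higher and 3.51% lower, and all 20 fetal-like genes (median 3.08) and 12 of 15 YAP targets (median 2.22) were among the higher. Of 13 stem genes 2 were higher and 5 lower there (median -0.18). Against the 62 Enterocyte-like cells, 2838 of 10986 genes (25.8%) were higher and 888 lower (8.08%). Among the higher were 18 of 20 fetal-like genes (median 2.34) and all 16 proliferation genes (median 2.21). Stem genes had 9 of 13 higher and 0 lower (median 1.65). YAP targets had 9 of 15 higher and 2 lower (median 2.14). Other lists stood closer to these cells. The p53 targets had 4 of 9 higher (median 0.50) and the EGF family 2 of 8 higher and 1 lower (median 0.49). Junction genes had 6 of 14 higher and 1 lower (median 0.37), and annexins 5 of 10 higher and 1 lower (median 0.57). Immediate early and heat shock genes had 4 of 12 higher and 4 lower (median -0.50). Fabp1 was at 25.1 CPM in the 150 cells and 3549 in the Enterocyte-like cells, Apob at 166 and 137, and Krt20 at 18.1 and 28.8. The 3 comparisons share the 150 cells. Cells outside the 150 in clusters 1, 2 and 9, with median scores of 1.18, 1.02 and 0.79, were not compared on their own.

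At day 5 few cells reached the score. With each cell thinned to 10000 UMIs, which left out 0 day 3 and 197 day 5 cells, 11 of 868 day 5 cells (1.27%, exact binomial 95% interval 0.634 to 2.26) were at or above the score of the 150th day 3 cell. With all UMIs the count was 13 of 1065 (1.22%). Clu was at 1506 CPM in the day 3 chosen cells, 87.8 in the other day 3 cells and 15.0 over all day 5 cells in thinned counts, and Ly6a at 375, 27.2 and 3.92. Clu was found in 94.0% of the chosen day 3 cells and 6.57% of day 5 cells. With 1 library per day there is no test, and day, medium and library cannot be told apart.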

How the data were processed

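Single-cell 3-prime libraries of day 3 and day 5 organoids were counted by the authors with Cell Ranger 1.3.0 on mm10, per the submitters' processing notes. They deposited UMI counts for 15745 genes and 1863 cells, and log2 values of the same cells; from the values, each deposited log2 value is log2(count / size factor + 1). The members and all 37 gene lists were chosen with earlier results of these data known. Depth per cell at day 3 was 17601 to 119743 UMIs. Counts were summed over cells, given as CPM, and log2 ratios used 0.5 UMI added to each sum. The named genes are the 20 highest and 12 lowest ratios with at least 50 CPM in the higher group and at least 10 UMIs in the lower, without mitochondrial, ribosomal protein or predicted genes, the 4 highest and 4 lowest of each list, the 6 score genes, Yap1, Dll1, Notch1, Hes1, Lgr5 and Mki67, and the 10 genes most like the score. A few of these genes are left out of the text. Clusters of day 3 cells came from scanpy 1.11.5 (Leiden, 2000 variable genes, 30 components, 15 neighbours, resolution 1). Shares were compared on thinned counts. TMM factors came from edgeR 4.0.16 as an alternative; others varied weighting, filter, depth, number of cells, genes of the score, doublets, comparison cells and mitochondrial share. Symbols were matched for 15681 genes, and the 64 without one held 0.0194% of UMIs.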

Additional observations from a re-analysis of the deposited data

How the results depend on the processing

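The number of genes higher in the 150 cells stayed within 1.5 times of 1930 in all 17 alternatives (1322 to 2404), and the number lower did so in all but 2 of them. It was 852 with TMM factors, where a shift of all ratios is built in, and 264 with only cells of the shared middle range of depth, where fewer cells enter. Of 34 lists tracked, 553 of 578 medians under alternatives kept their direction and their side of 1.5-fold. The 6 score genes make up 1 of these lists, and its medians were largely set by the choice of the cells. Of 132 genes tracked, the 6 score genes among them, 19 lost a call in 1 or more alternatives and 6 reversed. Without cells of secretory and Enterocyte-like clusters the medians turned to 0.79 for Notch ligands and secretory commitment, 0.076 for Paneth and 1.16 for goblet genes, and the log2 ratios to 0.52 for Agr2, 0.052 for Defa17, 0.076 for Defa24, 0.96 for Spink4 and 0.093 for Tff3. The enteroendocrine median was -2.34 with 100 cells, -2.63 and -2.66 with scores without Clu and without Ly6a, 0.62 with no minimum of UMIs and 0.71 in thinned counts. Cck was at -2.42, -2.60 and -2.70 in the first 3 of these settings. With only cells of the shared middle range of depth the medians were 0.73 for Wnt targets, -0.19 for Notch ligands, 0.52 for S100 and galectins and 0.67 for antigen presentation. With TMM factors they were 0.55 for actomyosin, -0.71 for the low-oxygen response and 0.44 for immediate early and heat shock genes. The low-oxygen median was -0.59 with 200 cells, -0.68 without Lgals3 in the score and -0.64 in thinned counts. The immediate early and heat shock median was 0.55 with each cell weighed alike, 0.54 with 200 cells, 0.57 without Msln in the score and 0.43 in thinned counts. Leaving out cells over 10% mitochondrial UMIs, chosen after seeing the data, gave 0.50 for claudins and junctions, -0.81 for the low-oxygen response and 0.13 for immediate early and heat shock genes. Beyond those whose construction is stated, the cause was not tested.

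With each cell weighed alike along the score, Clu was at 3524 and Sprr1a at 191 CPM in the first band, where S100a6 was at 6996 and Lgals2 at 592. In the second band Ly6a was at 297, Lgals2 at 965 and Sprr1a at 11.4 CPM, and Lgals2 was at 2402, 3362 and 3524 in the last 3 bands. No paired analysis was possible because each day has 1 library and the compared cells come from the same one. Intervals cover counting error only, and a difference between cells of 1 library says nothing of other cultures.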
